A study of Mus musculus with 6 samples.

Results

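Non-classical major histocompatibility complex (MHC) class I genes were compared between colitis mice receiving berberine (BBR) and colitis mice receiving sulfasalazine (SASP). The 8 genes H2-Q4, H2-Q6, H2-Q7, H2-T10, H2-T22, H2-T23, H2-T24 and H2-M3 were taken by their symbol from a table of 18268 genes. The list was chosen with earlier results of these data known, so it is not an unselected set of genes. Of the 8 genes, 7 passed the filter on low values, which kept 12072 genes, and H2-T10 did not. RNA had been sequenced from colorectal tissue of C57BL/6 mice, which the study describes as adult males. All had drunk dextran sulfate sodium (DSS), which damages the lining of the colon and brings on colitis, for 7 days. They had received either BBR, a plant alkaloid, or SASP, an aminosalicylate prodrug for colitis, by gavage for 6 days. Each group had 3 samples. Mice without colitis or without a drug are not analysed here, and each difference is between both drugs in DSS-treated tissue. Each sample is called a mouse below, although its label names no animal, and p-values measure only the spread between these samples.

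Classical class I proteins sit on nearly all cells and show peptides from inside the cell to CD8 T cells. Non-classical relatives share their fold and mostly pair with the same light chain, beta-2 microglobulin, but vary little between individuals and serve more specialised receptors. Many class I genes respond to interferons, cytokines that are made in the inflamed gut. H2-T23 encodes Qa-1, which carries leader peptides of other class I proteins and is the ligand of the inhibitory receptor CD94-NKG2A on natural killer (NK) cells and some T cells. H2-Q6 and H2-Q7 belong to the Qa-2 genes of the Q region, in which H2-Q4 also lies. H2-T10 and H2-T22 encode proteins bound by some gamma-delta T cells, and H2-M3 presents peptides with the formylated start that bacterial proteins carry.

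RefSeq promoters, 250 bases before to 50 bases after a start site in the GRCm38.p6 build, were given for 6 of the 8 genes. They were searched on both strands for GAAANNGAA, a core of the interferon-stimulated response element (ISRE). GAANNGAAA, the same core with its longer block at the other end, was added after the promoters had been seen. The 6 promoters all held one of these cores, on the minus strand of the promoter, whereas 14.9% of all 32544 promoters held one. H2-Q4, H2-Q6, H2-Q7 and H2-M3 held the added core, which 7.57% of all promoters held. H2-T22 and H2-T23 held the first, found in 8.53%. The 120 bases around each core are printed to show where it lies and how alike the Q genes are there. Capitals mark the core and any other motif that was searched.

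H2-Q4: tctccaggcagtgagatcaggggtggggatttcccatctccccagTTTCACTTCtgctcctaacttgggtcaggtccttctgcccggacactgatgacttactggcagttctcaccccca
H2-Q6: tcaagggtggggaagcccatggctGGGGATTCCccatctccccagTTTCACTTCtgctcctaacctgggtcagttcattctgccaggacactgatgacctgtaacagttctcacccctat
H2-Q7: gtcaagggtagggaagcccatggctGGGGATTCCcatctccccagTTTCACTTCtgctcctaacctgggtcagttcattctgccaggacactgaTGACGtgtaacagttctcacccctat
H2-M3: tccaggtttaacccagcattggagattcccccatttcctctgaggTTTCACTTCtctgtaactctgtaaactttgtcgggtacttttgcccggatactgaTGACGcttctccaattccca
H2-T22: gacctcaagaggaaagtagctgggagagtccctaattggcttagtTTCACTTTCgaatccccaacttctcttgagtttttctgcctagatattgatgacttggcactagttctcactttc
H2-T23: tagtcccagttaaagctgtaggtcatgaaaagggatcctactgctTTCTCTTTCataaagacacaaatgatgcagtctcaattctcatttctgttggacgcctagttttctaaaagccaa

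These stretches lie upstream of the transcribed sequence. In GRCm38.p6, H2-Q4 is at chr17:35379419-35379538, H2-Q6 at chr17:35424653-35424772, H2-Q7 at chr17:35438997-35439116 and H2-M3 at chr17:37270088-37270207, all on the plus strand. H2-T22 is at chr17:36042858-36042977 and H2-T23 at chr17:36032750-36032869, both on the minus strand. The core began 153 bases before the start site in H2-Q4 and 152 in H2-Q6. It began 113 bases before it in H2-Q7, 101 in H2-M3, 190 in H2-T22 and 123 in H2-T23. H2-Q6 and H2-Q7 also held GGGGATTCC, the kappa-B site of the class I enhancer, which 0.252% of all promoters held. TGACG, a short core bound by CREB-like factors, was in 4 of the 6 promoters and in 20.9% of all. TTCNNNGAA, a core of the gamma-activated site (GAS), was in H2-M3 and in 8.33% of all. The promoters of the classical genes H2-K1 and H2-D1 held the same added core and the same kappa-B letters, and that of B2m the first core. Neither core was in the promoters of Tap1, Psmb9, Tapbp and H2-Q2. No motif overlapped another in the 6 promoters. A match describes letters only, and binding was not measured.

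**Figure D1:**
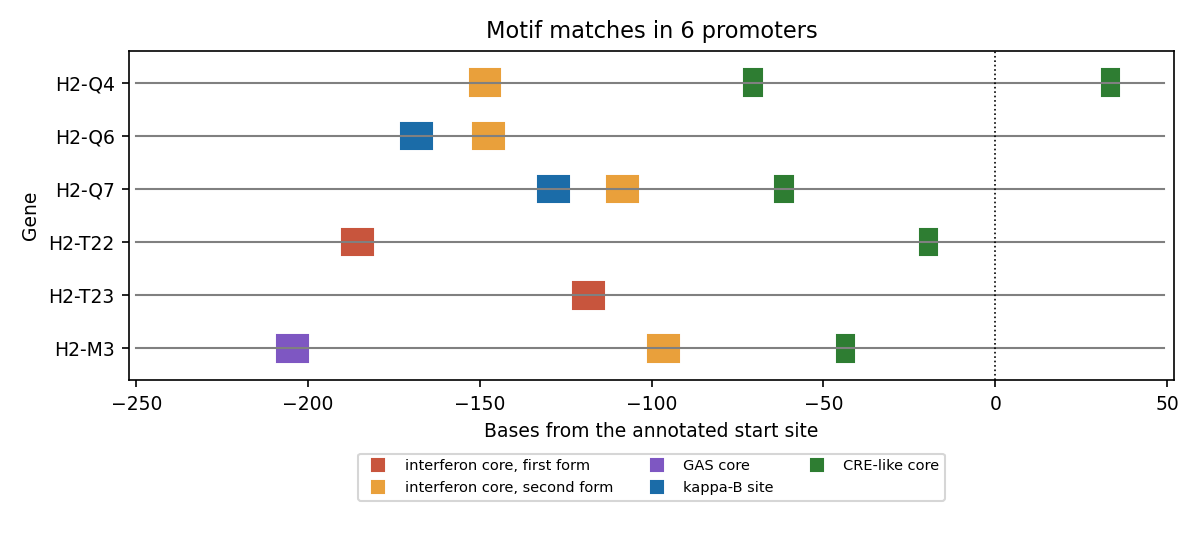
Motif matches in the promoters of 6 non-classical class I genes, with the distance in bases from the annotated start site on the horizontal axis and 1 line per gene. Orange and red boxes are the forms of the interferon core, which each promoter holds between 190 and 93 bases before the start site.

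Levels were compared as FPKM, a count of fragments per length of transcript and per sequencing depth. H2-T23 was the most abundant in all 6 mice, with 62.8 to 70.4% of the summed FPKM of the 8 genes. In BBR mice, H2-T22 was second at 42.7 to 47.0 FPKM and H2-Q4 next at 33.1 to 37.4 FPKM, and these ranges did not overlap. In SASP mice H2-Q4 was at 59.7 to 141.8 FPKM and H2-T22 at 46.6 to 71.5 FPKM, and these ranges did. H2-Q6, H2-Q7, H2-T24 and H2-M3 lay between 2.78 and 6.46 FPKM in BBR mice, each overlapping its neighbour in the order of levels. H2-T10 was below 1 FPKM in all mice. The 8 genes summed to 347, 302 and 270 FPKM in BBR mice 1, 2 and 3 and to 758, 369 and 663 FPKM in SASP mice 1, 2 and 3. Each SASP sum was above each BBR sum, and that of SASP mouse 2 was near them.

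**Figure D2:**
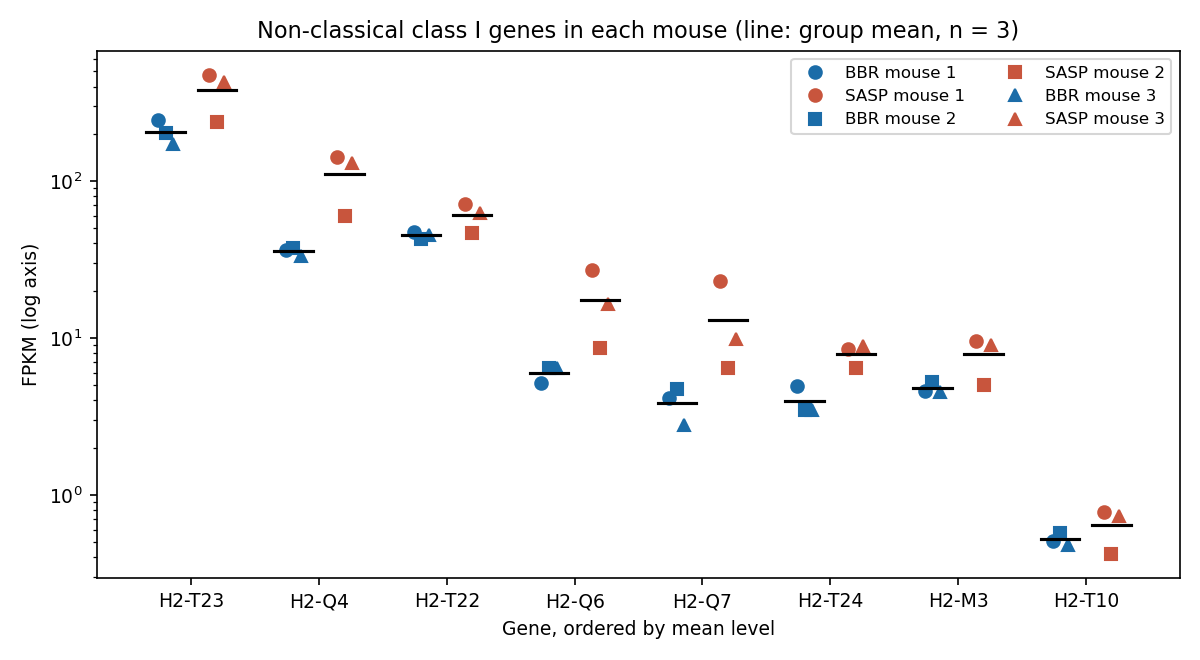
FPKM on a log axis of the 8 genes in 3 BBR (blue) and 3 SASP (red) mice, with 1 symbol per mouse and a line at each group mean. SASP mouse 2, the red square, is the lowest SASP mouse for all 8 genes, and both groups overlap for H2-T22, H2-T23, H2-M3 and H2-T10.

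BBR and SASP were then compared in a limma fit across all tested genes, on log2(FPKM + 1). The log2 fold change was below 0 for all 7 tested genes, which means less RNA in BBR mice, with a median of -0.86 against 0.10 over all genes. H2-Q4 and H2-T24 passed an adjusted p of 0.05, both lower in BBR mice. Among all genes 8.86% passed in either direction and 5.04% with lower levels in BBR mice. Without adjustment, 7 of 7 had a p under 0.05 with lower levels in BBR mice, as had 13.4% of all genes. All 3 BBR values lay below all 3 SASP values for 4 of the 7, H2-Q4, H2-Q6, H2-Q7 and H2-T24, and for 16.6% of all genes. The number of these genes past the threshold was 0 without BBR mouse 1, BBR mouse 2, SASP mouse 1 or SASP mouse 3. Among all genes, 131 of 11912, 371 of 11864, 59 of 11948 and 51 of 11917 passed in these fits, in that order, against 1069 of 12072 with all mice. The number was 4 without SASP mouse 2, namely H2-Q4, H2-Q6, H2-T23 and H2-M3, where 405 of 11899 genes passed. Without BBR mouse 3 it was 2, where 4018 of 11878 passed. In bulk tissue, fewer cells of a type and less RNA per cell cannot be told apart.

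Among the Q genes, H2-Q4 (Gene ID 15015) was at 36.4, 37.4 and 33.1 FPKM in BBR mice 1, 2 and 3 and at 141.8, 59.7 and 130.4 FPKM in SASP mice 1, 2 and 3. The groups did not overlap, and SASP mouse 2 was well below both other SASP mice. The BBR mean was 35.6 ± 2.26 FPKM and the SASP mean 111 ± 44.5 FPKM (SD, n = 3 each), 3.11-fold higher in the latter. The log2 fold change was -1.51 (SE 0.31, limma adjusted p = 0.0353). Leaving out BBR mouse 1 or 2 ended the call (limma adjusted p = 0.0892 and 0.0862), as did leaving out SASP mouse 1 or 3 (0.131 and 0.126). The estimate stayed between -1.91 and -1.29 in these fits. The study had itself named H2-Q4 and H2-T23, with Irf1 and Psmb8, in a comparison of SASP with untreated colitis samples. As that comparison may have used the same SASP samples, the direction of these genes is not independent evidence.

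H2-Q6 (110557) was at 5.16, 6.40 and 6.46 FPKM in BBR mice and at 27.1, 8.63 and 16.45 FPKM in SASP mice. H2-Q7 (15018) was at 4.13, 4.71 and 2.78 FPKM in BBR mice and at 22.9, 6.43 and 9.91 FPKM in SASP mice. Both had SASP mouse 1 far above the rest and SASP mouse 2 next above the highest BBR mouse. Their means were 6.01 ± 0.734 and 17.4 ± 9.28 FPKM for H2-Q6 and 3.87 ± 0.990 and 13.1 ± 8.67 FPKM for H2-Q7 (SD, n = 3 each). The log2 fold changes were -1.27 (SE 0.36, limma adjusted p = 0.0685) and -1.38 (SE 0.41, limma adjusted p = 0.0765), near that of H2-Q4 but past no threshold. Without SASP mouse 2, H2-Q6 passed at a limma adjusted p of 0.0294 with a change of -1.67. These genes share sequence, so how their reads were split is uncertain. Of all 50-base windows in the longest coding transcript, 13.9% of H2-Q6 also occurred in H2-Q7 and 19.3% of H2-Q7 in H2-Q6. Of H2-Q4, 39.2% of the windows occurred in some other gene. H2-Q9 was not among the transcripts compared, so these shares may be too low. Summed with their relative H2-Q9, H2-Q6 and H2-Q7 gave 9.37, 11.1 and 10.44 FPKM in BBR mice and 54.4, 15.1 and 27.2 FPKM in SASP mice. Tested as 1 feature, the sum changed by -1.38 on the log2 scale (SE 0.40, limma adjusted p = 0.0738), close to those of its parts.

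Among the T genes, H2-T23 (15040), the Qa-1 gene, was at 244, 202 and 173 FPKM in BBR mice and at 476, 236 and 425 FPKM in SASP mice. BBR mouse 1 lay above SASP mouse 2, so the groups overlapped, while the other SASP mice were well above all BBR mice. The means were 206 ± 35.4 and 379 ± 126 FPKM (SD, n = 3 each), and the log2 fold change was -0.83 (SE 0.28, limma adjusted p = 0.0964). Without SASP mouse 2 it was -1.13 and passed (limma adjusted p = 0.0372). Its transcript shared 29.8% of windows with other genes, 12.9% with the pseudogene H2-T-ps.

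H2-T24 (15042), a less studied T region gene, was at 4.93, 3.45 and 3.47 FPKM in BBR mice and at 8.54, 6.41 and 8.89 FPKM in SASP mice. The groups did not overlap, and the SASP mice lay closer together, as ratios, than for the other 7 genes. The means were 3.95 ± 0.849 and 7.95 ± 1.34 FPKM (SD, n = 3 each), 2.01-fold higher in SASP mice. The log2 fold change was -0.86 (SE 0.18, limma adjusted p = 0.0366). The limma adjusted p rose to 0.0654, 0.0967, 0.151, 0.0508 and 0.142 without BBR mouse 1, BBR mouse 2, SASP mouse 1, SASP mouse 2 and SASP mouse 3, in that order, and the change stayed between -0.99 and -0.78. H2-T24 shared 3.23% of its windows with other genes, the second lowest share of the 8.

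H2-T22 (15039), a gamma-delta T cell ligand gene, was at 47.0, 42.7 and 45.5 FPKM in BBR mice and at 71.5, 46.6 and 63.0 FPKM in SASP mice. SASP mouse 2 lay within the BBR range. The log2 fold change was -0.39 (SE 0.16, limma adjusted p = 0.151), the smallest of the 7 in size. Its close relative H2-T10 (15024) was at 0.51, 0.57 and 0.48 FPKM in BBR mice and at 0.78, 0.42 and 0.73 FPKM in SASP mice. These values overlapped, stood on roughly 11.3 to 20.5 reads per mouse and were not tested. H2-T10 shared 40.2% of its windows with H2-T22, and the sum of both gave a log2 fold change of -0.39 (limma adjusted p = 0.153).

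H2-M3 (14991), which presents formylated bacterial peptides, was at 4.62, 5.26 and 4.49 FPKM in BBR mice and at 9.61, 5 and 8.99 FPKM in SASP mice. SASP mouse 2 again lay within the BBR range, and the other SASP mice were clearly higher. Its log2 fold change was -0.57 (SE 0.23, limma adjusted p = 0.140), and without SASP mouse 2 it was -0.83 (limma adjusted p = 0.0466). Of its windows, 0.576% occurred in another gene.

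SASP mouse 2 had the lowest SASP value for all 8 genes. It had the lowest for 338 of the 608 genes called lower in BBR mice (55.6%). A call favours genes with close SASP values, and of the 8 genes only H2-Q4 and H2-T24 were called, so these shares do not compare like sets. SASP mouse 1 had the highest value of all 6 mice for 7 of the 8. To see whether the genes moved by unlike amounts, the ratio of each pair of tested genes was taken within each mouse. H2-Q4 stood at 0.773, 0.876 and 0.727 of the H2-T22 level in BBR mice and at 1.98, 1.28 and 2.07 of it in SASP mice. H2-T22 was thus the more abundant of the pair in all 3 BBR mice and H2-Q4 in all 3 SASP mice, which is an exact permutation p of 0.1, the smallest that 3 against 3 mice can give. The ratios did not overlap for 8 of the 21 pairs. These pairs reuse the same 7 genes, so they are not independent. The share over pairs of all genes was not computed, so this count does not show that the genes moved by unlike amounts. H2-Q4, H2-Q6 and H2-Q7 were each lower relative to H2-T22 and to H2-M3 in BBR mice, H2-Q4 also relative to H2-T23, and H2-T24 relative to H2-T22. Each of these gave an exact p of 0.1, which became 0.263 over the 21 pairs after Benjamini-Hochberg adjustment.

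**Figure D3:**
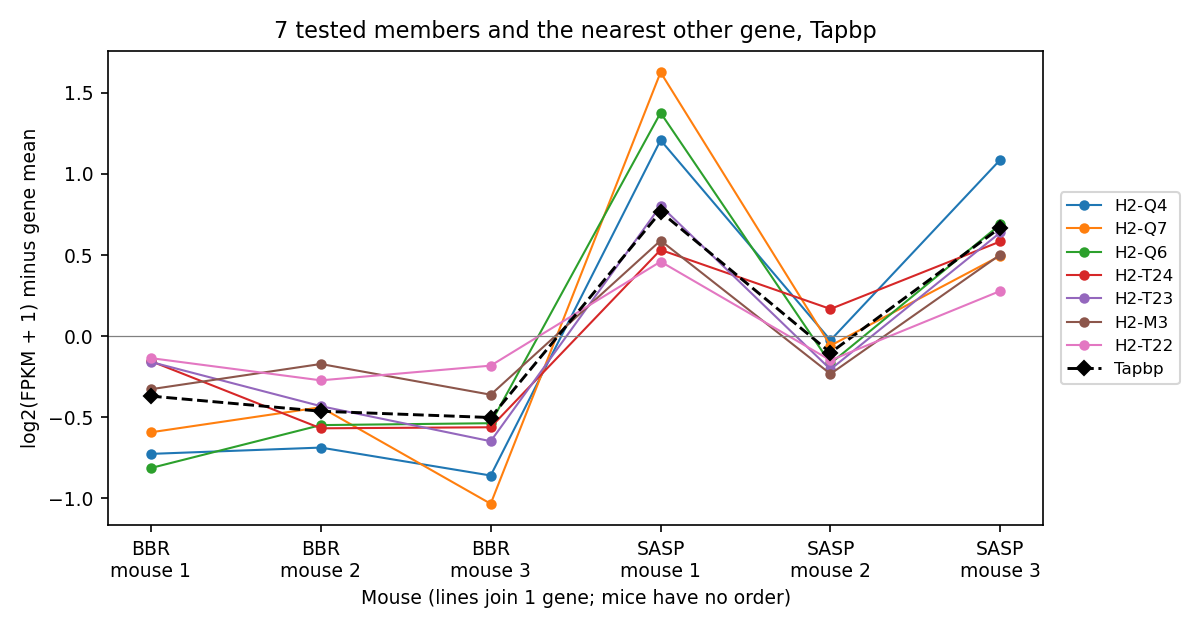
Profiles of the 7 tested genes and of Tapbp (black, dashed) over the 6 mice, as log2(FPKM + 1) minus the mean of each gene. The 3 BBR mice lie below 0 for all 8 lines, SASP mice 1 and 3 lie above it, and SASP mouse 2 lies near it.

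Other genes whose profile over the 6 mice was most like the mean of these 7 were then sought among 6033 genes at or above the median level. The measure was the root mean square difference of the mean-centred log2(FPKM + 1) values. Tapbp, which encodes tapasin, the protein that holds class I molecules at the peptide transporter, was nearest at 0.0876. It was followed by Clic5 at 0.142, Psme2 at 0.160, Cd52 at 0.164 and Clec2d at 0.170. Tapbp was thus nearer to the mean profile than any of the 7 genes themselves, which lay at 0.129 for H2-T23 to 0.343 for H2-Q7. These are descriptions over 6 mice, in which genes that differ between the drugs are alike by that alone.

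The partners of class I proteins were examined next. B2m, the light chain gene, was at 473, 382 and 464 FPKM in BBR mice and at 1551, 632 and 1131 FPKM in SASP mice. The groups did not overlap, with SASP mouse 2 again lowest in its group, and the log2 fold change was -1.24 (SE 0.32, limma adjusted p = 0.0570). The classical heavy chain gene H2-K1 was at 818, 757 and 763 FPKM in BBR mice and at 809, 570 and 732 FPKM in SASP mice, a change of 0.16 (limma adjusted p = 0.520). H2-D1 was at 530, 464 and 777 FPKM in BBR mice and at 1080, 658 and 892 FPKM in SASP mice, a change of -0.58 (limma adjusted p = 0.174). Neither classical gene separated the groups. The 8 non-classical genes together amounted to 25.7, 24.7 and 17.5% of the summed FPKM of H2-K1 and H2-D1 in BBR mice. In SASP mice they amounted to 40.2, 30.1 and 40.8%, above all BBR mice.

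The non-classical genes were then set against B2m in the same mouse. H2-T22 amounted to 9.95, 11.2 and 9.79% of B2m in BBR mice and to 4.61, 7.36 and 5.57% in SASP mice. All 3 BBR values were higher, and the log2 ratio differed by 0.84. The same held for H2-M3, with a difference of 0.58, and for H2-T10, with 0.98, each with an exact permutation p of 0.1 and 0.267 after Benjamini-Hochberg adjustment over the 8 genes. H2-T10 was below the filter, on roughly 11.3 to 20.5 reads per mouse, and shares sequence with H2-T22. Its ratio therefore mostly reflects B2m and is no evidence of a change in H2-T10. H2-T23 amounted to 51.6, 52.8 and 37.3% of B2m in BBR mice and to 30.7, 37.3 and 37.6% in SASP mice, and these overlapped (difference 0.41, exact p = 0.2). H2-Q4 amounted to 7.69, 9.78 and 7.12% in BBR mice and to 9.14, 9.44 and 11.5% in SASP mice (difference -0.30, exact p = 0.3). The ratios of H2-Q6, H2-Q7 and H2-T24 overlapped as well, at -0.15, -0.34 and 0.23. No ratio could pass the threshold with 3 mice a group, so these tests do not set the genes apart from each other. Against the sum of H2-K1 and H2-D1 instead, the difference of the log2 ratio was below 0 for all 8 genes, from -1.39 for H2-Q7 to -0.07 for H2-T10. The sign thus depended on the denominator for H2-T10, H2-T22, H2-T23, H2-T24 and H2-M3, whereas H2-Q4, H2-Q6 and H2-Q7 were below 0 against either of these. B2m itself changed by -1.24, and H2-K1 and H2-D1 changed by 0.16 and -0.58.

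**Figure D4:**
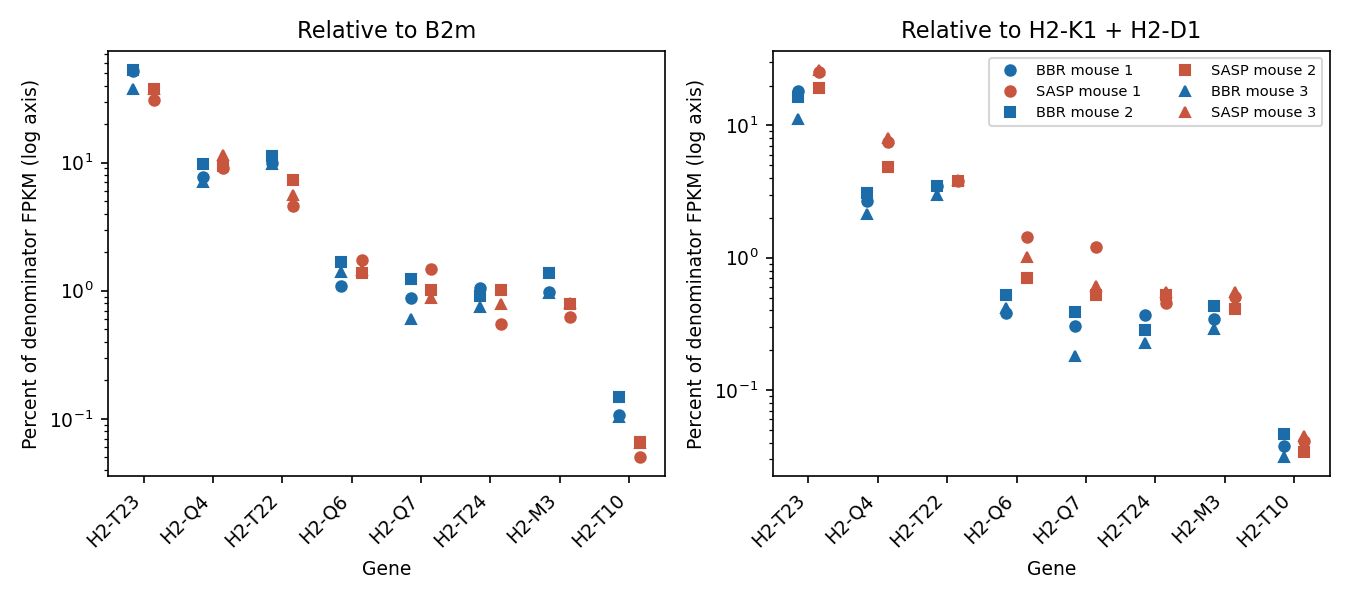
FPKM of the 8 genes as a percentage of B2m (left) and of H2-K1 plus H2-D1 (right) in the same mouse, on log axes, with 1 symbol per mouse in BBR (blue) and SASP (red). Relative to B2m, BBR mice are higher for H2-T22, H2-M3 and H2-T10, whereas relative to the classical genes the 3 SASP mice are higher for H2-Q4, H2-Q6, H2-Q7, H2-T22, H2-T23 and H2-T24. H2-T10 was below the filter, so its points rest on few reads.

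Genes that load class I molecules moved in the same direction and often further. Of 13 fixed and tested, all had lower values in BBR mice with no overlap, 9 passed the threshold and the median log2 fold change was -1.31. Tap1, a subunit of the peptide transporter, was at 9.30, 8.16 and 9.70 FPKM in BBR mice and at 148, 98.5 and 159 FPKM in SASP mice. This was the largest difference of the list, at -3.73 (SE 0.19, limma adjusted p = 0.000468), well beyond that of any non-classical gene. Its partner Tap2 changed by -1.49 (limma adjusted p = 0.0175). The immunoproteasome subunit genes Psmb9, Psmb8 and Psmb10 changed by -3.20, -2.26 and -1.62 (limma adjusted p = 0.00179, 0.0186 and 0.00988). Psme1 and Psme2, which encode the proteasome activator, changed by -1.31 and -1.19 (0.0267 and 0.0291). Tapbpl, a relative of tapasin, changed by -1.64 (0.00964), and Erap1, which trims peptides in the endoplasmic reticulum, by -0.91 (0.0234). Tapbp was at -0.89 (0.0572), and the chaperone genes Calr, Pdia3 and Canx were at -0.68, -0.55 and -0.41 (0.0656, 0.0542 and 0.0590). Tap1 and Psmb9 passed in each fit that left out 1 mouse. Tapbpl and Psmb10 lost theirs without SASP mouse 1 or 3 (limma adjusted p = 0.0530 to 0.0603). Tap2, Psmb8, Erap1, Psme1 and Psme2 lost theirs without any 1 of BBR mice 1 and 2 and SASP mice 1 and 3 (0.0501 to 0.118). Relative to Tap1, all 8 non-classical genes were higher in BBR mice, by 2.29 for H2-Q7 to 3.61 for H2-T10 on the log2 ratio, with no overlap. Since Tap1 was lower in BBR mice by more than any of them, this direction follows from Tap1 itself. It is not a separate result about the non-classical genes.

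Regulators of class I genes were mixed. Nlrc5, the transactivator of class I promoters, was at 0.29, 0.36 and 0.54 FPKM in BBR mice and at 15.3, 6.24 and 12.6 FPKM in SASP mice. All SASP mice were far above all BBR mice, and SASP mouse 2 was lowest among them, as it was for the class I genes. Nlrc5 changed by -3.07 on the log2 scale (SE 0.30, limma adjusted p = 0.00482). It reached 1 FPKM in SASP mice alone, so it passed the filter only through the group where it was high, and it was not tested in the fits that left out a SASP mouse. Irf1, which carries interferon signals to promoters, was lower in BBR mice, with a change of -1.68 (limma adjusted p = 0.00478). Socs1, a feedback inhibitor of this signalling, changed by -2.94 (0.0132), and it missed the threshold when BBR mouse 1, SASP mouse 1 or SASP mouse 3 was left out (0.0559, 0.0673 and 0.0719). Rfx5, Rfxap and Rfxank, subunits of the complex that binds class I promoters with Nlrc5, were at -0.37, 0.25 and 0.63 (limma adjusted p = 0.193, 0.413 and 0.0994). The receptor genes Ifngr1 and Ifngr2 were at -0.07 and 0.45 (0.674 and 0.0734). The kinase genes Jak1 and Jak2 were at 0.16 and 0.20 (0.314 and 0.243), and Irf2 was at 0.23 (0.640). Ifng itself was below the filter, listed at 0 in all 3 BBR mice and at 1.19, 0.30 and 0.21 FPKM in SASP mice.

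**Figure D5:**
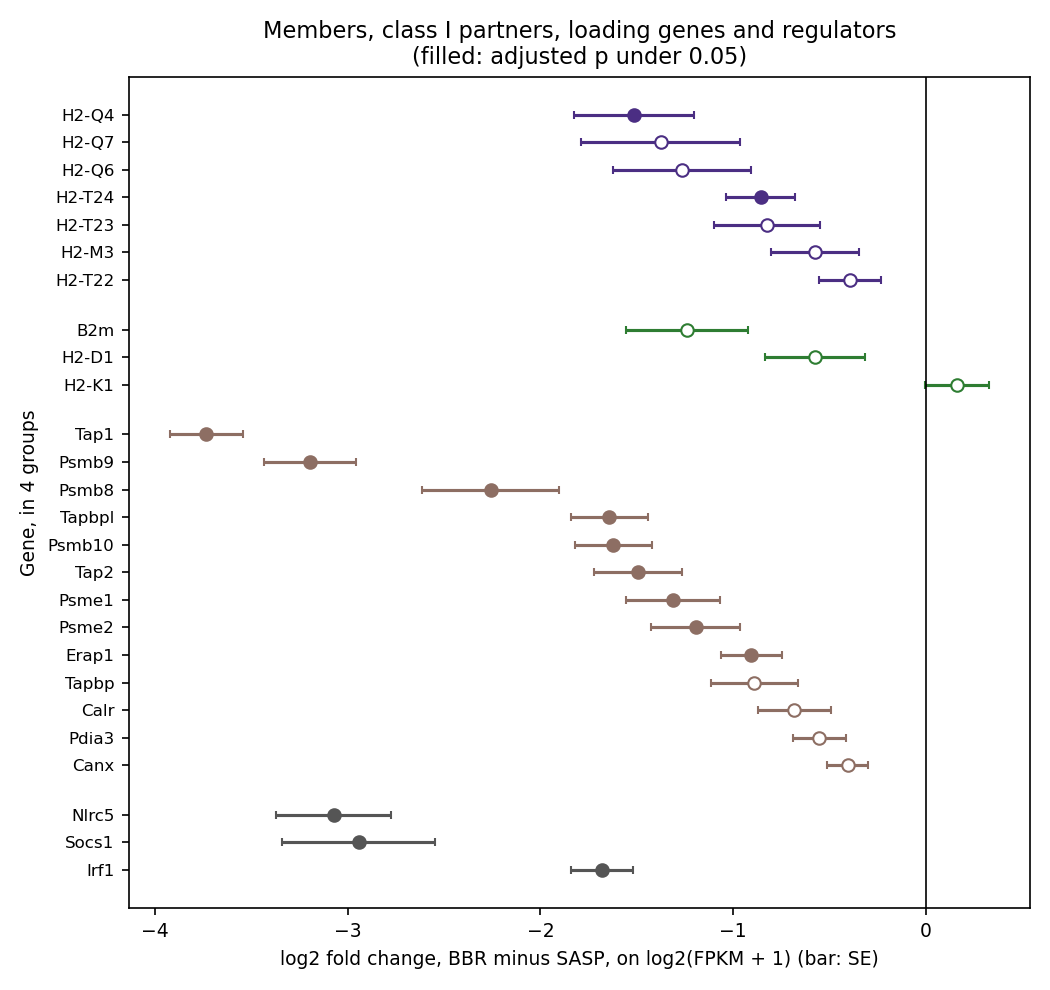
Size of the difference (log2 fold change with SE), BBR minus SASP mice (n = 3 each), of the 7 tested non-classical genes (purple), the light chain and classical heavy chains (green), 13 loading genes (brown) and the regulators Nlrc5, Socs1 and Irf1 (grey). Filled points passed an adjusted p of 0.05, and all points but H2-K1 lie left of 0, from -3.73 for Tap1 to -0.39 for H2-T22.

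Levels of cell type markers differed between the samples, whereas cell composition itself was not measured. The 6 epithelial markers were present in all mice and summed to 3568 to 5578 FPKM in BBR and to 3539 to 3785 FPKM in SASP mice, but they did not move alike. Epcam was at 833 to 1101 FPKM in all mice. Vil1 was lower in BBR mice at -0.55 (limma adjusted p = 0.0327), a call that held only in the fit without BBR mouse 3 when 1 mouse was left out (0.0628 to 0.139 in the others). Krt20 and Cdh17 were at -1.18 and -0.56 (0.0613 and 0.0848) and Car1 at 2.48 (0.0950), each without overlap. The 8 smooth muscle markers all had higher values in BBR mice, with 0 past the threshold, and summed to 2755 to 6554 FPKM in BBR and to 697 to 2198 FPKM in SASP mice. A score of these 8 markers was 0.18 to 1.35 in BBR mice and -1.59 to -0.017 in SASP mice, so it cannot be told apart from the drug. Once the fit took it in, 18 of all 12072 genes passed, against 1069 without it. All 7 tested non-classical genes then had smaller changes and none passed the threshold. H2-Q4 was at -0.93 (SE 0.38, limma adjusted p = 0.290), H2-T24 at -0.60 (SE 0.25, 0.306) and H2-Q6 at -0.60 (SE 0.44, 0.495). H2-Q7 was at -0.28 (SE 0.29, 0.624), H2-T23 at -0.21 (SE 0.28, 0.709), H2-M3 at -0.19 (SE 0.30, 0.759) and H2-T22 at -0.11 (SE 0.21, 0.80), each within 1 SE of 0. Tap1 and Psmb9 still passed with this covariate, whereas the other 7 loading genes called above, Nlrc5, Irf1 and Socs1 did not (limma adjusted p = 0.0969 to 0.257). The 4 fibroblast markers also had higher values in BBR mice, with sums of 114 to 181 against 57.2 to 101 FPKM. Thy1 and Col1a1 passed at 0.84 and 0.95 (limma adjusted p = 0.0399 and 0.0481). Thy1 held only without BBR mouse 3 when 1 mouse was left out (0.0685 to 0.151 in the others), and Col1a1 missed it when any 1 of BBR mice 1 and 2 and SASP mice 1 and 3 was left out (0.0888 to 0.147). The 4 endothelial markers were higher in BBR mice without overlap, at 11.2 to 22.7 against 6.04 to 8.78 FPKM in sum, with 0 past the threshold. Of the 5 granulocyte markers, 4 had lower values in BBR mice, and the sums were 192 to 567 and 357 to 536 FPKM. S100a8 passed at -3.49 (limma adjusted p = 0.0365), being at 0 in BBR mice 1 and 2, at 6.19 FPKM in BBR mouse 3 and at 18.5 to 23.1 FPKM in SASP mice. It held only without BBR mouse 3 when 1 mouse was left out (0.0885 to 0.132 in the others). The 5 pan-leukocyte markers had lower values in BBR mice, with 0 past the threshold, and summed to 13.3 to 21.4 FPKM in BBR mice. They summed to 45.5, 19.4 and 32.1 FPKM in SASP mice 1, 2 and 3, so SASP mouse 2 lay within the BBR range here as well. Of the 12 T and NK cell markers, 11 were listed and 3 were tested, with 0 past the threshold, and they summed to 5.27 to 9.75 FPKM in BBR and to 5.68 to 15.7 FPKM in SASP mice. The 6 B and plasma cell markers summed to 23.3 to 127.5 and to 27.7 to 70.1 FPKM. Cd79b was lower in BBR mice at -1.63 (limma adjusted p = 0.0489), but not without BBR mouse 1 or 2 (0.111 and 0.103). It passed the filter only through the SASP mice and was not tested without any 1 of them. The 9 macrophage markers summed to 109 to 170 and to 164 to 186 FPKM, with 0 of 8 tested past the threshold. The part of smooth muscle, leukocytes, fibroblasts, endothelium and the epithelial shifts in the class I differences was not tested.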

How the data were processed

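Expression was measured in 3 BBR and 3 SASP samples, grouped by their treatment label. The authors deposited FPKM per gene and sample, made with Bowtie2 2.2.5 and RSEM 1.2.12 on mm9 according to the submitters' processing notes. The methods name SOAPnuke filtering, ribosomal RNA depletion and short single-end nanoball reads, and the labels an Illumina kit. RSEM shares out a read that matches several genes. The authors' FPKM were transformed here as log2(FPKM + 1), which understates changes of low genes. Genes with at least 1 FPKM in at least 3 samples (12072 of 18268) were fitted with limma 3.58.1 in R 4.3.3, with empirical Bayes moderation, a variance trend, two-sided p-values and Benjamini-Hochberg adjustment over all genes (threshold 0.05). Ratios within mice were compared by two-sided exact permutation tests (scipy 1.17.1), which cannot go below 0.1. On simulated data with 200 genes changed by 1.5 on the log2 scale, 75% were recovered and 3.85% of calls were false. The simulated noise was independent between genes, so differences that many genes share within a mouse were not covered. Of the tested non-classical genes, only H2-Q4 changed by as much as 1.5.

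Depth was estimated from 31 to 56 genes a sample that were above 0 in that sample alone and had transcripts under 1500 bases. Each such value was assumed to be 1 read, and the medians gave 16400000 to 18200000 reads. FPKM summed to 461163 to 487054, and 11518 to 12307 genes reached 1 FPKM. Shared windows were counted on GENCODE M21 coding transcripts, and promoters came from RefSeq on GRCm38.p6, whose coordinates do not apply to mm9. Named were all 8 genes, all fixed partners, loading genes and regulators, up to 3 genes by smallest p of any other list and the 5 nearest profiles. Other genes named (Epcam, Car1, H2-T3, H2-Q9, Klrd1, Klrc1, Cd8b1 and Cd8a) were chosen after their values were seen. Some genes of the fixed lists are not reported here. The genes and lists were chosen with earlier results of these data known. The number of left-out sample columns was 0. Alternatives were other pseudocounts (0.1 and 0.01), filters, scalings and weights, a smooth muscle covariate, summed paralogs, other denominators and leaving out each mouse.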

Additional observations from a re-analysis of the deposited data

How the results depend on the processing

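The 7 tested genes stayed lower in BBR mice under all alternatives run, with H2-Q4 from -1.91 to -0.93, H2-T24 from -1.01 to -0.60, H2-Q6 from -1.67 to -0.60, H2-Q7 from -1.75 to -0.28, H2-T23 from -1.13 to -0.21, H2-M3 from -0.83 to -0.19 and H2-T22 from -0.57 to -0.11. The smallest change of each was with the smooth muscle covariate. Of the 8 genes, the number past the threshold was 2 with either other pseudocount, a mean FPKM of at least 5, quantile normalization, median-ratio scaling or no variance trend. It was 0 with no filter on low values, 0 with the smooth muscle covariate, 7 with array quality weights and 0 to 4 when 1 mouse was left out. Of all genes, 1069 passed, with 461 higher and 608 lower in BBR mice. The count was 591 with no filter on low values, 1737 with quantile normalization, 1712 with median-ratio scaling, 7126 with array quality weights, 18 with the smooth muscle covariate and 51 to 4018 when 1 mouse was left out. The cause was not tested. Array quality weights gave BBR mouse 1 and SASP mouse 3 weights of 5.32 and 4.85 and the others 0.129 to 0.746. Without filter, H2-Q4 and H2-T24 had limma adjusted p-values of 0.0612 and 0.0654, and Psme2 one of 0.0531.

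The log2 ratio to B2m reversed its direction for some genes under other denominators. Relative to Tap1, H2-Q4, H2-Q6 and H2-Q7 were at 2.33, 2.48 and 2.29, as Tap1 itself was lower in BBR mice by more than each of them. Relative to H2-K1 plus H2-D1, H2-T10, H2-T22, H2-T23, H2-T24 and H2-M3 were at -0.069, -0.21, -0.64, -0.82 and -0.47. When 1 mouse was left out, the ratio of H2-Q6 to B2m ranged from -0.30 to 0.012 and that of H2-T24 from -0.0051 to 0.43. No paired analysis was possible because the numbers of the mice follow accession order and pair no samples across groups. With 3 mice a group and H2-T10 below 1 FPKM, a difference in H2-T10 was not detectable at this depth.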

Other observations

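Other genes of the class I family were less uniform. Of 29 fixed, 20 were listed and 10 tested, 7 with lower and 3 with higher values in BBR mice, and the median log2 fold change was -0.09. Fcgrt, which encodes the neonatal Fc receptor, was the only one past the threshold, at 57.9, 54.9 and 51.4 FPKM in BBR mice and at 23.7, 33.5 and 30.4 FPKM in SASP mice. It was higher in BBR mice by 0.90 (limma adjusted p = 0.0187), opposite in direction to the 7 non-classical genes tested in the report. Leaving out BBR mouse 1, BBR mouse 2, SASP mouse 1 or SASP mouse 3 ended this call (limma adjusted p = 0.0540 to 0.0850). H2-Q1, another Q region gene, was at -0.39 (0.0931), and Cd1d1, which presents lipids to NKT cells, at -0.75 (0.0948), both without overlap and with lower values in BBR mice. H2-T3, the thymus leukaemia antigen gene of gut epithelium, was below the filter at 0.37, 0.22 and 0.18 FPKM in BBR mice and at 1.33, 0.66 and 1.10 FPKM in SASP mice, with no overlap. H2-Q9, a Qa-2 relative of H2-Q7, was listed at 0.08, 0 and 1.2 FPKM in BBR mice and at 4.42, 0 and 0.86 FPKM in SASP mice.

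Receptors for these proteins were scarce in the tissue, and 2 of the 12 listed were tested. Klra2, a receptor gene of the Ly49 family, was at 0.16, 0.18 and 0.36 FPKM in BBR mice and at 1.71, 1.18 and 1.35 FPKM in SASP mice. Klra2 changed by -0.97 on the log2 scale (limma adjusted p = 0.0186). It missed the threshold without BBR mouse 1 or 2 (0.0685 and 0.0553) and, having passed the filter only through the SASP mice, was not tested without any 1 of them. Pirb, an inhibitory receptor gene of myeloid and B cells, was at -0.50 (0.0592). Klrd1, the CD94 part of the Qa-1 receptor, was at 0.58, 1.47 and 0.76 FPKM in BBR mice and at 0.18, 0.43 and 0.56 FPKM in SASP mice, without overlap and in the opposite direction to H2-T23, but below the filter and not tested. Cd8b1, a marker of CD8 T cells, was at 0.30, 0.48 and 0.31 FPKM in BBR mice and at 1.92, 0.47 and 2 FPKM in SASP mice, and SASP mouse 2 lay within the BBR range. Cd8a, another such marker, differed less, at 0.68, 0.69 and 0.72 FPKM in BBR mice and at 1.09, 0.70 and 0.85 FPKM in SASP mice, with overlap. Of 9 ligand genes of the activating receptor NKG2D, 5 were listed and Raet1e alone was tested, at 0.25 (limma adjusted p = 0.544).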
